A study of Mus musculus with 11 samples.

Results

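The genes Sult1a1, Ddc, Hif3a, Ada, Cdkn1a, Pla2g3 and Rhoj were followed in the mouse lumbar spinal cord. They are 7 of the 20888 genes in the deposited expression table, chosen by their RPKM values because their level was higher in MFN2-R94Q spinal cord than in nontransgenic or MFN2-R94Q:MFN1 spinal cord. The comparisons with MFN2-R94Q that chose them are therefore given as a description, with no test. The comparison of MFN2-R94Q:MFN1 with nontransgenic, which was not itself the rule, was tested. Values of both these groups entered the choice, which is therefore not independent of this test. Its model took part of its estimate of the spread from the MFN2-R94Q libraries, whose values chose the genes.

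Messenger RNA was sequenced from lumbar spinal cord of C57BL/6 mice aged 10 months. The study counted 5 mice of genotype MFN2-R94Q:MFN1, which carry MFN1 in addition to the R94Q mutant of MFN2, 3 MFN2-R94Q mice and 3 nontransgenic controls (nTg), with 1 library per mouse. Mitofusin 1 and mitofusin 2 (MFN1, MFN2) are GTPases of the mitochondrial outer membrane that tether and fuse mitochondria, and MFN2 mutations cause Charcot-Marie-Tooth disease type 2A, an axonal neuropathy. The promoter that drives each transgene, the cells in which it is active and the sex of the mice are not given in the sources.

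The 7 genes belong to no single pathway. Sult1a1, Ddc, Ada and Pla2g3 encode enzymes of small molecules: Sult1a1 is a cytosolic sulfotransferase that attaches sulfate to phenols, Ddc makes dopamine and serotonin by decarboxylation, Ada deaminates adenosine to inosine, and Pla2g3 is a secreted phospholipase A2. Hif3a and Cdkn1a encode regulators: Hif3a is a subunit of the hypoxia-inducible factor family with isoforms that restrain the other subunits, and Cdkn1a (p21) inhibits cyclin-dependent kinases and is a classic p53 target. Rhoj is a small GTPase close to Cdc42 and best known from endothelial cells, where it acts in vessel growth.

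Expression is given as RPKM, reads scaled to transcript length and library depth, so levels can be compared between genes. Depth, approximated from the steps between low values of short RNA genes, lay between 30.5 and 71.8 M reads per library. The libraries of a group differed from each other, and none was a copy of another. The MFN2-R94Q libraries were the most spread: their median absolute log2 deviation from the rest of the group was 0.0906, 0.107 and 0.0622 in replicates 1 to 3, against at most 0.0591 in any library of MFN2-R94Q:MFN1 or nTg. MFN2-R94Q replicate 2 stood apart for every one of the 7 genes, and results that rest on it are given with and without it. Replicate numbers only name libraries and pair nothing across groups. In whole tissue, a change in the number of cells of a type and a change in RNA per cell cannot be told apart.

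Promoter windows from 250 bases before to 50 bases after the RefSeq start (GRCm38.p6) were found for 6 of the 7 genes, 8 windows in all; Pla2g3 had none. Both strands were searched for the glucocorticoid response element hexamer AGAACA, which reads TGTTCT on the other strand, and its full palindrome, in which both hexamers stand 3 bases apart. The ACGTG form of the hypoxia response core and the p53 decamer were searched as well. The GCGTG form of the hypoxia core was not searched. The palindrome, where present, contains the hexamer. The windows of Sult1a1 and Cdkn1a are shown because each holds a match, and they differ in the motif. The Sult1a1 window lies on the minus strand at chr7:126676369-126676668, with its 2 hexamers in capitals. The Cdkn1a window lies on the plus strand at chr17:29090729-29091028, with its 2 p53 decamers in capitals.
Sult1a1: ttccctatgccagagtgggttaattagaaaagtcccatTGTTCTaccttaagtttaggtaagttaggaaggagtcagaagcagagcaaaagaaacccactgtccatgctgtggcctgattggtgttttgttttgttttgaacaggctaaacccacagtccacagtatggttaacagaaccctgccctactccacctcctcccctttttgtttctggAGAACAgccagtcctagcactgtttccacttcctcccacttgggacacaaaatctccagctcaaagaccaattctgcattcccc
Cdkn1a: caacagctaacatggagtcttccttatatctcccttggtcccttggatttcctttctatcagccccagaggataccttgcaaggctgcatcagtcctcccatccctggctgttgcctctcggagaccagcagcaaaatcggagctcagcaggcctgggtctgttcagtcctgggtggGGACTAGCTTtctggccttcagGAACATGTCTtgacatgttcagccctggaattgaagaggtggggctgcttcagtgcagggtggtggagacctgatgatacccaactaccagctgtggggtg
The AGAACA hexamer occurred in 19.0% of 32817 RefSeq promoter windows of the same length, so the presence of the motif in the Sult1a1 window is common. The 2 matches start at positions -212 and -34 from the gene's start. The p53 decamer occurred in 8.36% of all windows, and the 2 in the Cdkn1a window start at positions -73 and -51. The full palindrome, present in 3 of all windows, and the ACGTG form of the hypoxia core, present in 19.6% of them, were in none of the 8 windows. The second Cdkn1a window and the windows of Ddc, Hif3a, Ada and Rhoj held none of the 4 motifs searched.

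Among the enzymes, Sult1a1 (chromosome 7, 126672865 to 126676432 on GRCm38, minus strand) had 2.95, 2.22, 3.44, 3.05 and 2.74 RPKM in MFN2-R94Q:MFN1, then 5.55, 17.4 and 7.68 RPKM in MFN2-R94Q, against 2.34, 2.66 and 2.32 RPKM in nTg. All 3 MFN2-R94Q libraries lay above every library of the other groups, and replicate 2 was the highest. The mean of MFN2-R94Q:MFN1 was 2.88 ± 0.449 RPKM (SD, n = 5) and that of nTg 2.44 ± 0.195 RPKM (SD, n = 3). Relative to the nTg mean, the 3 MFN2-R94Q libraries stood at 2.27, 7.14 and 3.15 times its level.

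Ddc (chromosome 11, 11814101 to 11898144, minus strand) had 5.52, 4.86, 6.33, 5.43 and 5.74 RPKM in MFN2-R94Q:MFN1, then 9.99, 31.1 and 10.2 RPKM in MFN2-R94Q, against 4.76, 3.71 and 5.16 RPKM in nTg. MFN2-R94Q replicates 1 and 3 lay close together and above all libraries of both other groups, with replicate 2 far above them. MFN2-R94Q:MFN1 averaged 5.57 ± 0.532 RPKM (SD, n = 5) and nTg 4.54 ± 0.748 RPKM (SD, n = 3), and the ranges of these 2 groups overlapped.

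Ada, the gene of the lowest level of the 7 in nTg (chromosome 2, 163726584 to 163750239, minus strand), had 1.03, 0.839, 0.692, 0.962 and 0.894 RPKM in MFN2-R94Q:MFN1, then 1.13, 3.88 and 2.08 RPKM in MFN2-R94Q, against 0.912, 0.485 and 0.694 RPKM in nTg. MFN2-R94Q replicate 1 was only just above the highest MFN2-R94Q:MFN1 library. At the approximate depths and with the longest GENCODE M21 transcript, these values stand for about 36 to 273 reads per library, the fewest of the 7 genes.

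Pla2g3 (chromosome 11, 3488284 to 3499350, plus strand) had 3.94, 4.13, 4.57, 3.27 and 4.19 RPKM in MFN2-R94Q:MFN1, then 5.41, 13.3 and 7.23 RPKM in MFN2-R94Q, against 4.87, 5.92 and 5.00 RPKM in nTg. MFN2-R94Q replicate 1 fell inside the nTg range, so these groups overlapped. All 5 MFN2-R94Q:MFN1 libraries lay below all 3 nTg libraries.

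Of the regulators, Hif3a (chromosome 7, 17031507 to 17062427, minus strand) had 2.09, 1.28, 2.23, 1.54 and 1.37 RPKM in MFN2-R94Q:MFN1, then 2.89, 10.4 and 4.03 RPKM in MFN2-R94Q, against 1.81, 1.72 and 0.867 RPKM in nTg. All MFN2-R94Q libraries were above the others. The nTg libraries were uneven, with replicate 3 the lowest of the 11 libraries, and the ranges of MFN2-R94Q:MFN1 and nTg overlapped.

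Cdkn1a (chromosome 17, 29090976 to 29100727, plus strand) had 8.44, 7.04, 7.66, 7.31 and 8.51 RPKM in MFN2-R94Q:MFN1, then 11.1, 91.8 and 18.8 RPKM in MFN2-R94Q, against 12.9, 11.6 and 10.9 RPKM in nTg. Replicate 2 of MFN2-R94Q was 7.78 times the nTg mean, while replicate 1 fell inside the nTg range at 0.939 times that mean. As for Pla2g3, every MFN2-R94Q:MFN1 library lay below every nTg library. The MFN2-R94Q mean of 40.5 RPKM had an SD of 44.5 (n = 3), larger than the mean itself.

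Rhoj (chromosome 12, 75308322 to 75401456, plus strand) had 2.37, 2.71, 2.95, 3.19 and 2.96 RPKM in MFN2-R94Q:MFN1, then 3.98, 8.51 and 3.53 RPKM in MFN2-R94Q, against 2.38, 2.54 and 2.28 RPKM in nTg. Its 3 MFN2-R94Q libraries were the highest of the 11, and the other groups overlapped.

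**Figure D1:**
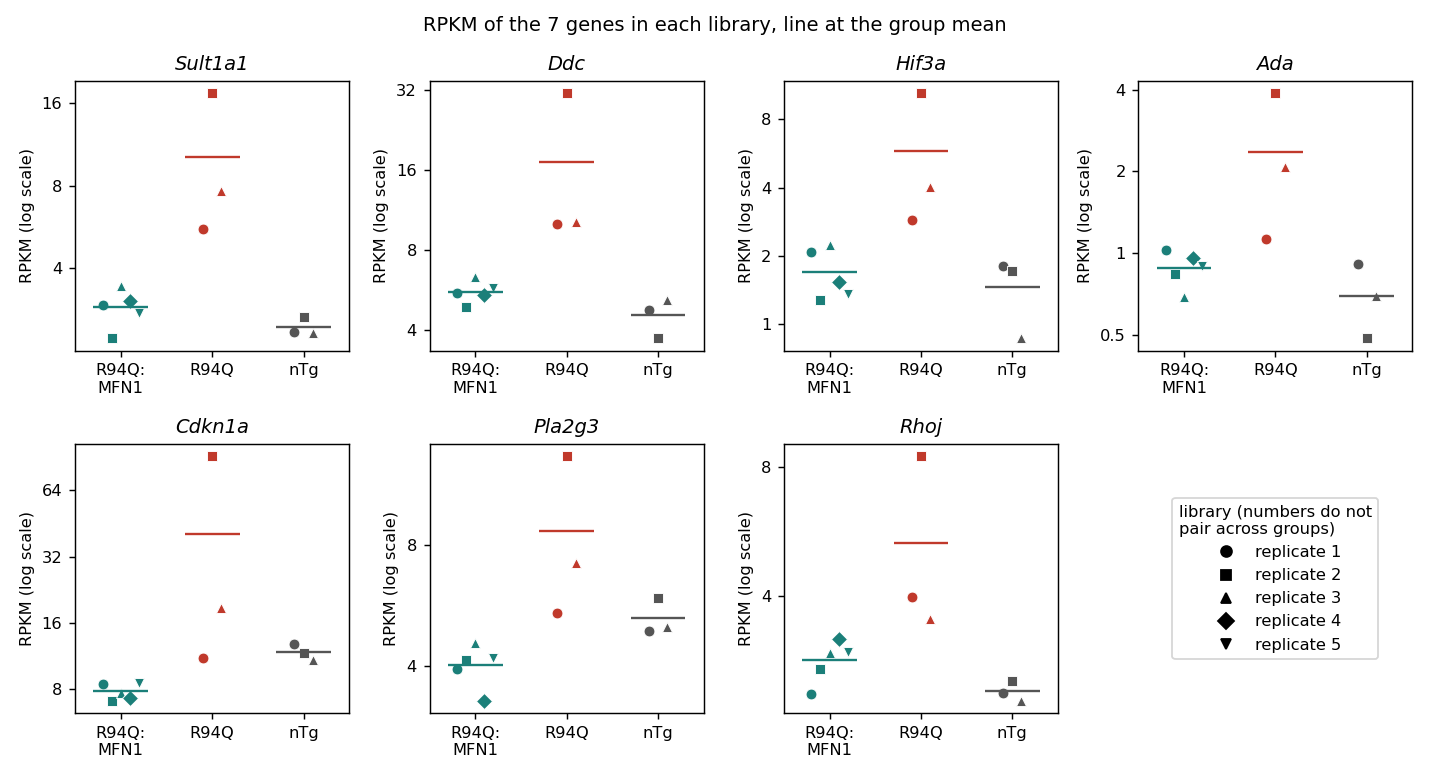
Level of each of the 7 genes in RPKM on a log scale, 1 point per library, for MFN2-R94Q:MFN1 (5 libraries), MFN2-R94Q (3) and nTg (3), with a line at the group mean. MFN2-R94Q replicate 2 is the highest library in all 7 panels, and replicate 1 overlaps nTg for Cdkn1a and Pla2g3.

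The description as genes raised in MFN2-R94Q held for 5 of the 7 genes, whose MFN2-R94Q and nTg libraries did not overlap, while Cdkn1a and Pla2g3 overlapped; of all 14347 genes tested, 16.6% were higher in MFN2-R94Q with no overlap. All 7 genes had every MFN2-R94Q:MFN1 library below every MFN2-R94Q library, beside 7.05% of tested genes. These counts restate the choice of the genes, and both comparisons share the MFN2-R94Q libraries.

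The 3 MFN2-R94Q animals differed in degree in the same order for most of the 7 genes. On the log2(RPKM + 0.5) scale, the median elevation over the nTg mean was 0.63 in replicate 1, 2.51 in replicate 2 and 1.09 in replicate 3. As ratios of RPKM to the nTg mean, the 7 genes ranged from 0.939 to 2.27 in replicate 1, from 2.53 to 7.78 in replicate 2 and from 1.37 to 3.15 in replicate 3. Replicate 2 was the highest of the 11 libraries for 7 of 7 genes. Replicate 3 was above all nTg libraries for 7 of 7 genes and replicate 1 for 5 of 7. The genes were chosen for high MFN2-R94Q values, so these counts largely restate that choice. The share of all tested genes with the same pattern is not given here. Rhoj was the exception to the order of replicates 1 and 3, at 3.98 RPKM in replicate 1 and 3.53 RPKM in replicate 3.

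**Figure D2:**
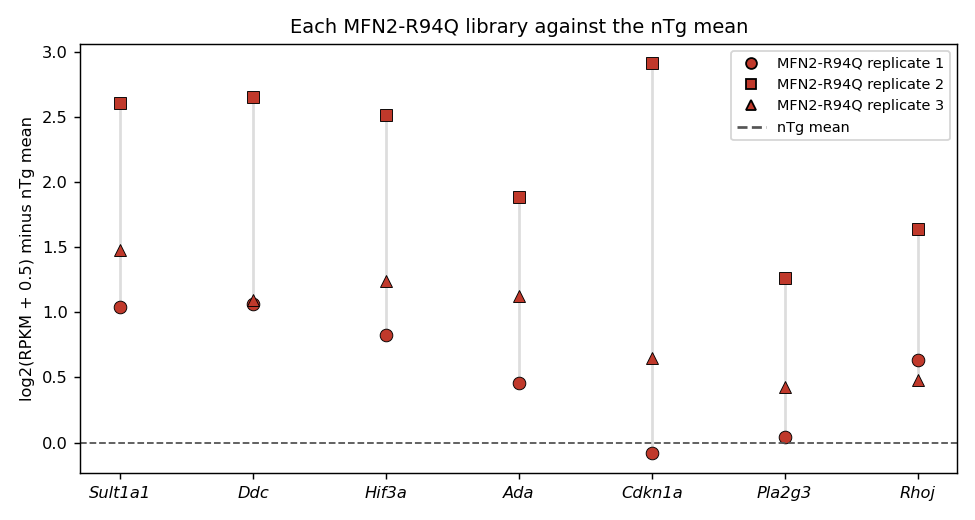
Difference of each MFN2-R94Q library from the nTg mean on the log2(RPKM + 0.5) scale for the 7 genes, 1 symbol per library, with a dashed line at the nTg mean. Replicate 2 is highest for every gene, and replicate 1 falls just below the line for Cdkn1a, at -0.08.

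The spread among MFN2-R94Q libraries exceeded that of the other groups for all 7 genes. Choosing genes for high MFN2-R94Q values can itself favour a wide spread there. Over all tested genes, too, the MFN2-R94Q libraries had the largest median deviations from the rest of their group. The share of all tested genes with the widest spread in MFN2-R94Q is not given here. The within-group SD of log2(RPKM + 0.5) ranged from 0.626 to 1.56 over the genes in MFN2-R94Q, from 0.115 to 0.279 in MFN2-R94Q:MFN1 and from 0.066 to 0.421 in nTg. Within MFN2-R94Q:MFN1 the 7 genes did not share 1 order of libraries: replicate 3 was the highest for 4 of them, and replicates 1, 4 and 5 for 1 each. In nTg, replicates 1 and 2 were each the highest for 3 genes.

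Without MFN2-R94Q replicate 2, the ratio of mean RPKM in MFN2-R94Q to nTg was 2.71 for Sult1a1, 2.22 for Ddc, 2.36 for Hif3a, 2.30 for Ada and 1.57 for Rhoj. For Cdkn1a it was 1.27 and for Pla2g3 1.20. The ratio of MFN2-R94Q:MFN1 to the 2 remaining MFN2-R94Q libraries ranged from 0.436 for Sult1a1 to 0.754 for Rhoj. All 7 genes thus kept their direction in both comparisons without that library, at smaller size.

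Overlapping genes were measured because the sources do not say whether counting used the strand. Exons of Sgf29 overlap Sult1a1 on the opposite strand, and Sgf29 had 6.62 ± 0.468 RPKM in MFN2-R94Q:MFN1 (SD, n = 5), 7.46 ± 1.25 RPKM in MFN2-R94Q and 6.66 ± 0.561 RPKM in nTg (SD, n = 3 each). Exons of Inpp5j overlap Pla2g3 on the opposite strand, and Inpp5j had 18.6 ± 0.460, 19.99 ± 2.14 and 19.6 ± 0.473 RPKM in MFN2-R94Q:MFN1, MFN2-R94Q and nTg. Neither partner showed a difference of the size seen for Sult1a1 or Pla2g3 in replicate 2. Exons of AC167363.2 overlap Cdkn1a on the opposite strand, and that gene has no values to measure. How reads in the shared exons were assigned was not tested.

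The question left by the choice of genes is whether MFN2-R94Q:MFN1 spinal cord differed from nTg. In the limma model of all 11 libraries, 0 of the 7 genes passed the threshold of an adjusted p under 0.05, beside 2.31% of the 14347 tested genes. An unadjusted p under 0.05 was found for 0 of the 7, and the share of all tested genes there is not given here. The choice of genes can itself favour low values in nTg and in MFN2-R94Q:MFN1. It can also favour uneven MFN2-R94Q values, which enter the shared estimate of the spread and make a call less likely. The standard error for Cdkn1a was 0.45 in this model and 0.07 with the 2 groups fitted alone. The absence of calls therefore does not show that the 2 groups were alike. For 5 genes the estimate was slightly above 0. Ddc differed by 0.27 on the log2 scale (95% interval -0.32 to 0.87, limma adjusted p = 0.683), Ada by 0.22 (-0.28 to 0.72), Rhoj by 0.20 (-0.22 to 0.62), Sult1a1 by 0.19 (-0.35 to 0.73) and Hif3a by 0.18 (-0.48 to 0.84). The intervals therefore reach from below to above nTg.

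Cdkn1a and Pla2g3 lay on the other side. Cdkn1a averaged 7.79 ± 0.661 RPKM in MFN2-R94Q:MFN1 (SD, n = 5) and 11.8 ± 1.004 RPKM in nTg (SD, n = 3), a difference of -0.57 on the log2 scale (95% interval -1.55 to 0.41, limma adjusted p = 0.593). Pla2g3 averaged 4.02 ± 0.478 RPKM in MFN2-R94Q:MFN1 (SD, n = 5) and 5.26 ± 0.568 RPKM in nTg (SD, n = 3), a difference of -0.35 (-0.78 to 0.08, limma adjusted p = 0.429). Both genes were lower in 5 of 5 MFN2-R94Q:MFN1 libraries than in all 3 nTg libraries, as were 5.05% of all tested genes, and the two-sided exact permutation p was 0.0357 for each, the smallest that 5 against 3 libraries can give. That p is not adjusted for the 7 genes. The choice of genes can favour low MFN2-R94Q:MFN1 values, so it is not independent of that choice either. For the other 5 genes the exact permutation p lay between 0.0714 and 0.536.

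The calls for these genes depended on the MFN2-R94Q libraries, which enter the shared estimate of the spread. In the fits below, too, the choice of genes can favour low MFN2-R94Q:MFN1 values, and so calls of lower level. With MFN2-R94Q:MFN1 and nTg fitted alone, 2 of 7 genes passed the limma threshold, beside 3.94% of all tested genes and 0.739% called lower. An unadjusted p under 0.05 was found for 4 of 7. The share of all tested genes at that unadjusted p is not given here, so the 4 cannot be set against it. Cdkn1a was then at 0.675 times the nTg level on the log2(RPKM + 0.5) scale (95% interval 0.609 to 0.748, limma adjusted p = 0.000636). Pla2g3 was at 0.783 times that level (0.685 to 0.895, limma adjusted p = 0.049). Ddc was at 1.21 times the nTg level (1.05 to 1.39, limma adjusted p = 0.133) and Rhoj at 1.147 times it (1.022 to 1.288, limma adjusted p = 0.177). The remaining 3 genes lay between 1.13 and 1.16 times the nTg level, with intervals that include it. With only MFN2-R94Q replicate 2 left out of the model of 3 groups, Cdkn1a passed the threshold (limma adjusted p = 0.0224) and Pla2g3 did not (0.0726), beside 4.11% of the genes then tested and 0.775% called lower.

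**Figure D3:**
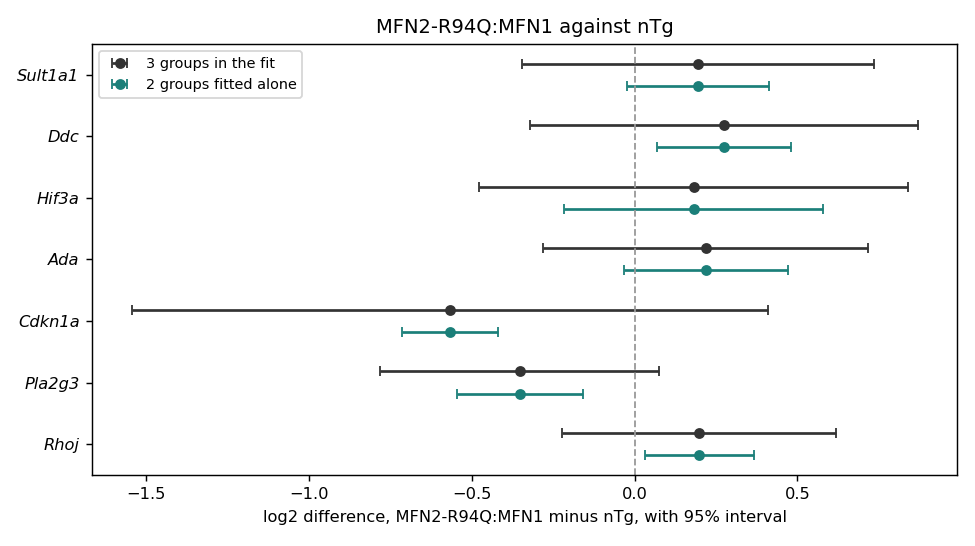
Difference of MFN2-R94Q:MFN1 from nTg on the log2(RPKM + 0.5) scale for the 7 genes, with 95% intervals, from the limma model of all 11 libraries and with the 2 groups alone. Cdkn1a and Pla2g3 are to the left of 0, at -0.57 and -0.35, and the other 5 genes are to the right of 0, with intervals that narrow when the MFN2-R94Q libraries are left out.

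Other genes of the pathways to which the 7 belong were examined as lists that leave the 7 out, chosen with earlier results of these data known. Of all tested genes, 7.5% were called higher and 10.4% lower in MFN2-R94Q than nTg, 9.55% higher and 3.33% lower in MFN2-R94Q:MFN1 than MFN2-R94Q, and 2.09% higher and 0.223% lower in MFN2-R94Q:MFN1 than nTg. The median log2 difference of all tested genes was within 0.02 of 0 in each comparison. Folds below come from the same limma model on the log2(RPKM + 0.5) scale. Counts at an unadjusted p are given without the share of all tested genes.

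Around Ddc, 12 genes of monoamine synthesis and breakdown were tested. In MFN2-R94Q against nTg, 3 fell and 1 rose, and the list's median was -0.10 on the log2 scale. Among those that fell were Qdpr, which regenerates the tetrahydrobiopterin cofactor of the hydroxylases, and Spr, which makes that cofactor. Qdpr averaged 180 ± 35.4 RPKM in MFN2-R94Q and 248.96 ± 6.25 RPKM in nTg (SD, n = 3 each), a fold of 0.715. Spr was at 0.831-fold, and both calls held with each library left out in turn. The gene that rose, Hdc, which makes histamine, was not past the threshold without nTg replicate 2. In MFN2-R94Q:MFN1 against MFN2-R94Q, 3 of the 12 rose, Qdpr at 1.38-fold among them. Hdc thus had the direction of Ddc in MFN2-R94Q against nTg, and Qdpr and Spr had the opposite one. Against nTg, only Pcbd1, which recycles the same cofactor, passed the threshold in MFN2-R94Q:MFN1, at 0.873-fold, and its call was lost without any 1 of the 3 nTg libraries or of MFN2-R94Q:MFN1 replicates 1 to 4.

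Around Hif3a, 9 genes of the hypoxia-inducible factor system and 13 of its targets were tested. Hif1an, the asparagine hydroxylase that restrains the factor, fell to 0.857-fold in MFN2-R94Q against nTg, and Egln3, a prolyl hydroxylase, fell to 0.887-fold, a call lost without MFN2-R94Q replicate 2 or any 1 of the nTg libraries. None of the 9 rose there (limma; 0 at an unadjusted p under 0.05). Hif1a rose to 1.11-fold in MFN2-R94Q:MFN1 against MFN2-R94Q and 1.13-fold against nTg. The first call was lost without MFN2-R94Q replicate 2 or 3 or any 1 of MFN2-R94Q:MFN1 replicates 1 to 4, and the second without MFN2-R94Q replicate 3, any 1 nTg library or any 1 of MFN2-R94Q:MFN1 replicates 1 to 4. Epas1 passed the threshold in no comparison, with 28.3 ± 0.539 RPKM in MFN2-R94Q:MFN1 (SD, n = 5), 28.2 ± 1.82 RPKM in MFN2-R94Q and 28.1 ± 2.80 RPKM in nTg (SD, n = 3 each).

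Among the 13 targets, 3 fell and 1 rose in MFN2-R94Q against nTg, and 4 rose and 2 fell in MFN2-R94Q:MFN1 against MFN2-R94Q. Vegfa, the endothelial growth factor, averaged 18.6 ± 0.810 RPKM in MFN2-R94Q:MFN1 (SD, n = 5), 13.3 ± 2.24 RPKM in MFN2-R94Q and 20.7 ± 1.28 RPKM in nTg (SD, n = 3 each). It was thus low in MFN2-R94Q, at 0.648-fold of nTg, the reverse of Hif3a. Ldha, which makes lactate, was at 0.729-fold in MFN2-R94Q against nTg and 1.28-fold in MFN2-R94Q:MFN1 against MFN2-R94Q. Kdm3a, a histone demethylase, moved with Hif3a, at 1.24-fold in MFN2-R94Q against nTg and 0.8503-fold in MFN2-R94Q:MFN1 against MFN2-R94Q, the last call being lost without MFN2-R94Q replicate 2. The count of targets that rose in MFN2-R94Q against nTg was 4 without MFN2-R94Q replicate 1 and 2 without nTg replicate 3. The count that fell in MFN2-R94Q:MFN1 against MFN2-R94Q was 0 without MFN2-R94Q replicate 2 and 1 without MFN2-R94Q replicate 3 or any 1 of MFN2-R94Q:MFN1 replicates 2 to 5. Hk2, a hexokinase, was the only target past the threshold in MFN2-R94Q:MFN1 against nTg, at 1.32-fold, a call lost without nTg replicate 3.

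Around Cdkn1a, 22 genes of p53 and its targets and 14 other inhibitors, cyclins and kinases of the cell cycle were tested. In MFN2-R94Q against nTg, 5 of the 22 rose and 2 fell. Sesn1 and Sesn2, which restrain growth signalling, were at 1.27-fold and 1.23-fold, and Pmaip1, a promoter of cell death, was at 1.26-fold. The count of 5 was 2 without MFN2-R94Q replicate 2, nTg replicate 2 or nTg replicate 3, and among these named genes the call of Pmaip1 held with each library left out. Cd82, a membrane tetraspanin, fell to 0.762-fold with 15.3 ± 0.540 RPKM in MFN2-R94Q and 20.3 ± 0.697 RPKM in nTg (SD, n = 3 each). The count of 2 that fell was 1 without any 1 of the nTg libraries, MFN2-R94Q replicates 1 or 3, or MFN2-R94Q:MFN1 replicate 1. Trp53 itself passed the threshold in no comparison, at 1.12-fold in MFN2-R94Q against nTg (limma adjusted p = 0.122).

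In MFN2-R94Q:MFN1 against MFN2-R94Q, Sesn1 fell to 0.760-fold and Cd82 rose to 1.32-fold, 1 gene of the 22 in each direction. The count that rose was 2 without MFN2-R94Q replicate 2, and the count that fell was 3 without MFN2-R94Q replicate 1 and 2 without MFN2-R94Q replicate 3 or nTg replicate 2. Against nTg, 0 of the 22 passed the threshold in MFN2-R94Q:MFN1 (limma; 4 at an unadjusted p under 0.05). Among the cell cycle genes, Ccnd1 (cyclin D1) fell in MFN2-R94Q to 8.20 ± 1.62 RPKM, against 11.6 ± 0.248 RPKM in nTg (SD, n = 3 each), and it was the only one of the 14 past the threshold there. In MFN2-R94Q:MFN1 against MFN2-R94Q, 4 of the 14 rose and none fell (limma; 0 fell at an unadjusted p under 0.05). They were Ccnd1 at 1.39-fold, Ccnd2 at 1.33-fold, Cdkn1c at 1.21-fold and Cdk4 at 1.13-fold, with Ccnd2 lost without MFN2-R94Q replicate 2. Against nTg, 0 of the 14 passed in MFN2-R94Q:MFN1 (limma; 3 at an unadjusted p under 0.05), and 1 did without MFN2-R94Q replicate 2.

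Around Ada, 16 genes of adenosine metabolism and its receptors were tested, and 1 passed the threshold in any comparison. Entpd3, which breaks down nucleotides outside the cell, fell to 0.845-fold in MFN2-R94Q, with 14.0 ± 1.04 RPKM against 16.7 ± 0.635 RPKM in nTg (SD, n = 3 each). Of the 16, 0 passed in MFN2-R94Q:MFN1 against MFN2-R94Q (limma; 2 at an unadjusted p under 0.05), and against nTg 0 of the 16 passed (2 at an unadjusted p under 0.05). Leaving out MFN2-R94Q replicate 1 gave 1 gene that rose in MFN2-R94Q against nTg and 1 in MFN2-R94Q:MFN1 against MFN2-R94Q. Leaving out replicate 3 gave 2 genes that fell in MFN2-R94Q against nTg and 2 that rose in MFN2-R94Q:MFN1 against MFN2-R94Q. The list around Sult1a1 had 8 tested genes. Impad1, a phosphatase that clears a by-product of sulfation, was at 1.12-fold in MFN2-R94Q against nTg, a call lost without nTg replicate 2, and the count was 2 without MFN2-R94Q replicate 1. Papss1, which makes the sulfate donor, was at 1.10-fold in MFN2-R94Q:MFN1 against MFN2-R94Q, a call lost without MFN2-R94Q replicate 2. Against nTg, 0 of the 8 passed in MFN2-R94Q:MFN1 (limma; 3 at an unadjusted p under 0.05).

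Around Pla2g3, 9 other phospholipases A2 were tested, and 1 rose and 4 fell in MFN2-R94Q against nTg. The gene that rose was Pla2g4e, of the cytosolic group, with 1.62 ± 0.120 RPKM in MFN2-R94Q:MFN1 (SD, n = 5), 2.43 ± 0.604 RPKM in MFN2-R94Q and 1.28 ± 0.0898 RPKM in nTg (SD, n = 3 each). Its fold was 1.62 in MFN2-R94Q against nTg and 0.734 in MFN2-R94Q:MFN1 against MFN2-R94Q, and both calls held with each library left out. Pla2g16, Pla2g6 and Pla2g4a, the last also of the cytosolic group, were at 0.8497-fold, 0.857-fold and 0.637-fold in MFN2-R94Q against nTg, and the count of 4 was 2 without nTg replicate 2. In MFN2-R94Q:MFN1 against MFN2-R94Q, 2 of the 9 rose, Pla2g4a at 1.46-fold and Pla2g16 at 1.11-fold. That count was 0 without MFN2-R94Q replicate 2 or any 1 of MFN2-R94Q:MFN1 replicates 1 to 4, and 1 without MFN2-R94Q:MFN1 replicate 5, nTg replicate 1 or MFN2-R94Q replicate 1. Against nTg, 0 of the 9 passed the threshold in MFN2-R94Q:MFN1 (limma; 3 at an unadjusted p under 0.05), and 1 did without MFN2-R94Q replicate 2. Pla2g4e therefore had the direction of the Pla2g3 means in MFN2-R94Q against nTg, and Pla2g16, Pla2g6 and Pla2g4a had the opposite one.

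A list of 17 glucocorticoid receptors and targets was examined because Cdkn1a and Sult1a1 are known to respond to glucocorticoids in other tissues. In MFN2-R94Q against nTg, 6 of the 17 rose and 1 fell, and the median of the list was 0.54 on the log2 scale, beside 0.00 for all tested genes. In MFN2-R94Q:MFN1 against MFN2-R94Q, 6 fell and the median was -0.48. Against nTg, 0 of the 17 passed the threshold in MFN2-R94Q:MFN1 (limma; 3 at an unadjusted p under 0.05), and the median was 0.03. The metallothioneins Mt1 and Mt2, which bind zinc, were at 1.74-fold and 1.86-fold in MFN2-R94Q against nTg and held with each library left out. In MFN2-R94Q:MFN1 against MFN2-R94Q, Mt1 was at 0.694-fold, a call lost in 9 of the fits with 1 library left out. Mt2 was at 0.705-fold there and did not pass the threshold (limma adjusted p = 0.0768). Arrdc2, of the arrestin family, averaged 9.07 ± 2.12 RPKM in MFN2-R94Q:MFN1 (SD, n = 5), 28.4 ± 16.9 RPKM in MFN2-R94Q and 9.50 ± 2.83 RPKM in nTg (SD, n = 3 each). Its 2.57-fold call in MFN2-R94Q against nTg was lost without MFN2-R94Q replicate 2 or 3 or nTg replicate 2 or 3.

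Hsd11b1, which regenerates active glucocorticoid, was the gene of that list that fell in MFN2-R94Q, to 0.731-fold of nTg. The receptors Nr3c1 and Nr3c2 passed the threshold in no comparison, at 0.929-fold and 1.04-fold in MFN2-R94Q against nTg. The count of 6 that rose in MFN2-R94Q was 4 without MFN2-R94Q replicate 2, with a median of 0.33, 11 without replicate 1, and 2 without nTg replicate 2 or 3. The count of 6 that fell in MFN2-R94Q:MFN1 against MFN2-R94Q was 1 without MFN2-R94Q replicate 2 or any 1 of MFN2-R94Q:MFN1 replicates 2 to 5, 3 without nTg replicate 2 or 3, and 12 without MFN2-R94Q replicate 1. Without MFN2-R94Q replicate 2 the median of that comparison was -0.24. Leaving out MFN2-R94Q replicate 2 also gave 2 genes higher in MFN2-R94Q:MFN1 than nTg.

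**Figure D4:**
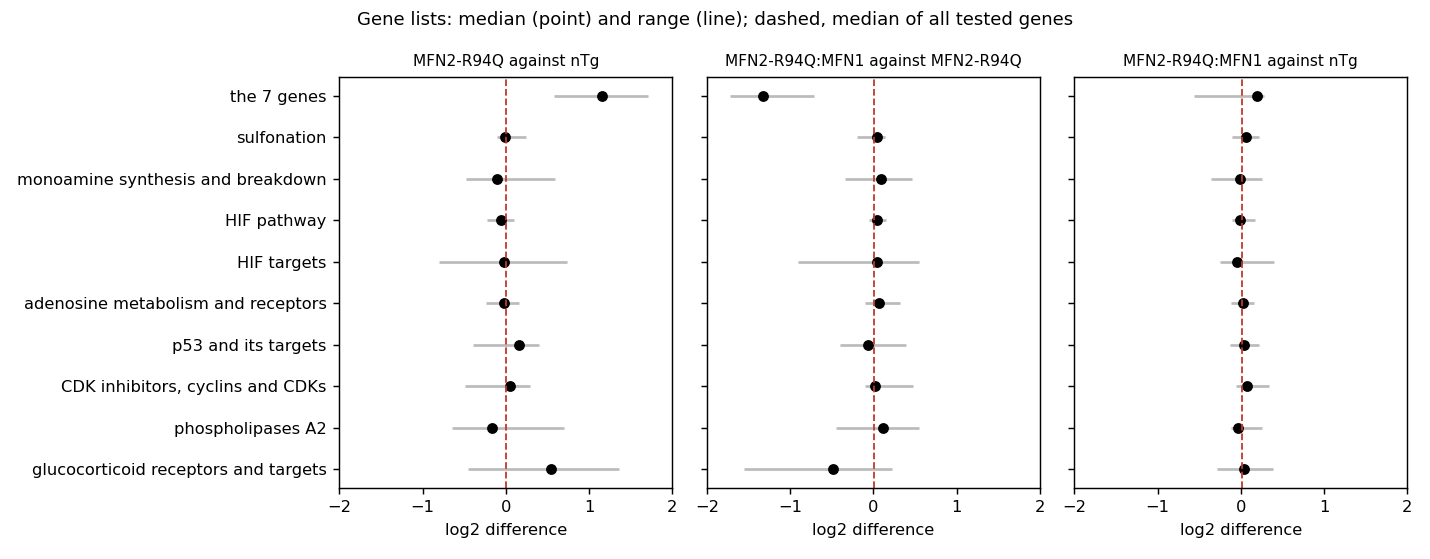
Log2 differences of the tested genes of each list in the 3 comparisons, with the list's median as a point, its range as a line and the median of all tested genes as a dashed line. The glucocorticoid list has its median at 0.54 in MFN2-R94Q against nTg and -0.48 in MFN2-R94Q:MFN1 against MFN2-R94Q, and the medians of the other pathway lists lie within 0.2 of 0.

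The genes whose pattern over the 11 libraries was most like the mean of the 7 were ranked among 13165 genes. Likeness was the root mean square difference between standardised log2(RPKM + 0.5) profiles, which had a median of 1.36 over all genes compared. Among the 10 closest were Mast3 (0.147), Mapk4 (0.158), Garnl3 (0.160), Nup155 (0.169), Sesn1 (0.177), Ocrl (0.181), Ptpdc1 (0.182), Fkbp5 (0.184) and Nt5c3 (0.203). Of the 7 genes themselves, Sult1a1 was nearest to their mean at 0.186 and Pla2g3 farthest at 0.385. The mean profile is led by MFN2-R94Q replicate 2, so likeness here mostly ranks genes by how that library stood out.

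Of these companions, Fkbp5, a co-chaperone of the glucocorticoid receptor, averaged 7.998 ± 0.741 RPKM in MFN2-R94Q:MFN1 (SD, n = 5), 17.1 ± 10.6 RPKM in MFN2-R94Q and 7.62 ± 0.830 RPKM in nTg (SD, n = 3 each). Mast3, a serine/threonine kinase, averaged 21.4 ± 0.588 RPKM in MFN2-R94Q:MFN1 (SD, n = 5), 30.2 ± 9.28 RPKM in MFN2-R94Q and 20.5 ± 0.312 RPKM in nTg (SD, n = 3 each). Both have the wide spread of MFN2-R94Q that the 7 genes showed. Sesn1 and Fkbp5 are also members of the p53 and glucocorticoid lists.

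Cell type markers were measured beside these results, and every marker on the lists was above 0 in every group. The 10 oligodendrocyte markers summed to 4269 to 4591 RPKM in MFN2-R94Q:MFN1, 3641 to 3980 RPKM in MFN2-R94Q and 4106 to 4454 RPKM in nTg. The 6 motor neuron markers summed to 85.7 to 92.5, 77.1 to 83.9 and 90.2 to 93.1 RPKM in the same groups, so their RNA was present in all of them. The sums of both cell types were thus lowest in MFN2-R94Q, and lowest of all in its replicate 2, the library in which the 7 genes were highest. This was not particular to them. Replicate 2 was also lowest of all libraries for neurons, microglia, pericytes and smooth muscle, oligodendrocyte precursors, ependymal cells, endothelium and blood. It was not for astrocytes, meningeal fibroblasts, Schwann cells, sensory ganglion or skeletal muscle. The 10 astrocyte markers summed to 1179 to 1204 RPKM in MFN2-R94Q:MFN1, 1110 to 1189 RPKM in MFN2-R94Q and 1176 to 1208 RPKM in nTg, with replicate 2 the highest of MFN2-R94Q.

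Endothelial markers, which matter for Rhoj, summed over 15 genes to 127 to 144 RPKM in MFN2-R94Q:MFN1, 116 to 127 RPKM in MFN2-R94Q and 130 to 139 RPKM in nTg. In MFN2-R94Q against nTg, 7 of the 15 fell and 3 rose. Of these calls, 2 of the 7 and 1 of the 3 held with each library left out, and the others were lost without nTg replicate 2. The level of Rhoj in MFN2-R94Q thus ran opposite to the endothelial sum, which was lowest in replicate 2, as were the sums of several other cell types. Microglial markers summed over 10 genes to 201 to 227 RPKM in MFN2-R94Q:MFN1, 137 to 160 RPKM in MFN2-R94Q and 145 to 157 RPKM in nTg. In MFN2-R94Q:MFN1 against MFN2-R94Q, 10 of 10 rose, and 8 of these calls held with each library left out. Against nTg, 5 of the 10 rose in MFN2-R94Q:MFN1, and 3 of these calls held with each library left out. Blood markers ranged from 147 to 460 RPKM in MFN2-R94Q:MFN1, 116 to 247 RPKM in MFN2-R94Q and 196 to 260 RPKM in nTg. The 4 Schwann cell markers summed to 1.08 to 12.5 RPKM in MFN2-R94Q:MFN1, 1.40 to 1.99 RPKM in MFN2-R94Q and 0.971 to 1.24 RPKM in nTg. The part of these markers in the levels of the 7 genes was not tested.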

How the data were processed

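The 7 genes and all gene lists were chosen with earlier results of these data known. The table the authors deposited holds RPKM of 20888 genes in 11 libraries. The submitters' processing notes name TopHat, Partek 7.17.0918 and the build mm10. Per the labels' protocols the kit keeps strand. The annotation, the use of strand in counting and the treatment of reads that match several genes are not given in the sources. RPKM hides depth, so the depths given are approximate.

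The 14347 genes that reached 0.5 RPKM in 3 or more libraries, all 7 among them, were tested on log2(RPKM + 0.5), a scale that understates folds of low genes. A linear model with a mean per genotype was fitted to the 11 libraries together (limma 3.58.1, R 4.3.3, eBayes with trend), two-sided, with Benjamini-Hochberg adjustment over all tested genes, and the threshold was an adjusted p of 0.05. Since the study's design counts animals, a library stands for 1 mouse, and p-values measure the spread between these libraries. Exact permutation tests used scipy 1.17.1 on the same log2 values. The procedure was tested on simulated data.

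Named genes were the 7, up to 4 genes per pathway list past the threshold with the smallest p, the receptors Nr3c1 and Nr3c2, Hif1a, Epas1, Trp53, and the 10 genes of most similar profile. A few named genes and 1 pathway list are not reported here. Hdc was named after its values were seen. Promoters and coordinates came from RefSeq (GRCm38.p6) and GENCODE M21. Alternatives, 22 in all, covered the pseudocount, filter, scaling, samples in the model, library weights, threshold, eBayes options and each library left out in turn.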

Additional observations from a re-analysis of the deposited data

How the results depend on the processing

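For MFN2-R94Q:MFN1 against nTg, 332 genes passed the threshold in the model of all 11 libraries. The count was 565 with the 2 groups fitted alone, 590 with library weights (whose estimation stopped before full convergence) and 156 at an adjusted p of 0.01. With each library left out in turn it ranged from 189, without nTg replicate 1, to 589, without MFN2-R94Q replicate 2, and it was 192 and 213 without nTg replicates 2 and 3 and 205 without MFN2-R94Q:MFN1 replicate 4. Of the 7 genes, 0 passed in the model of all libraries, 2 with the 2 groups fitted alone, and 0 to 1 with each library left out in turn. Hif3a changed sign in MFN2-R94Q:MFN1 against nTg without nTg replicate 3, at -0.061 on the log2 scale, and ranged from there to 0.3176, without nTg replicate 1. The other 6 genes kept their direction in every alternative. No scaling moved the median log2 difference of all genes by 0.1. No paired analysis was possible because the labels carry no replicate numbers shared between groups. With 3 animals in 2 of the groups and a single MFN2-R94Q library that leads the 7 genes, the size of their elevation in MFN2-R94Q is poorly fixed.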
